A study of Saccharomyces cerevisiae with 24 samples.

Results

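Cobalt chloride is used in cell culture as a chemical stand-in for low oxygen. To see where that stand-in falls short of real oxygen loss and where it goes further, the transcript levels of *S. cerevisiae* cells given cobalt in air were set directly against those of cells kept without oxygen for the same time. Both groups were strain L51, a MATa strain whose chromosomal *HAP1* gene is disrupted by *LEU2*, so that all of its *HAP1* comes from a low-copy plasmid carrying the complete gene. The first group ([air+Hap1+Co+]) was kept aerobic while exposed for 6 h to cobalt chloride at 400 µM and the second ([anaerobic_Hap1+]) spent 6 h in an anaerobic chamber, with 3 Affymetrix arrays each. These 6 arrays are part of 24 in the series, 18 of them of strain L51, and 5449 *S. cerevisiae* genes were compared. Aerobic *HAP1* cells without cobalt (3 arrays) are given beside the comparison as a point of reference. All values are log2 intensities, where a difference of 1 is a 2-fold change, and differences are cobalt minus 6 h without oxygen unless stated. Arrays with the same replicate number shared a hybridization day. Per the study's methods the replicates were independently grown batches of cells. Its results section states that 1 of the 3, which it does not identify, was run on another strain. The methods name only L51 for the oxygen experiments.

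Yeast needs oxygen to make heme, sterols and unsaturated fatty acids, and to respire. When oxygen is lost, heme falls, the heme-activated factor Hap1 stops driving genes of respiration and the repressor *ROX1*, and hypoxic genes are released. The factor Upc2 responds to sterol shortage and switches on sterol uptake and a set of cell wall mannoproteins. Cobalt is thought to mimic part of this state by interfering with iron and heme enzymes, although oxygen itself is still present.

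Several arrays stood apart from their groups, and the main results are therefore also given without the cobalt, 1.5 h and 6 h arrays of number 3. These arrays were singled out after their values were seen, so the fit without them describes the remaining arrays and is not independent support, least of all for *ANB1*, *CYC1*, *PAU3*, *FET3*, *INH1* and *YER053C-A*, for which it is given with no p. Counts of list members called in that fit include *ANB1*, *CYC1*, *PAU3* and *FET3*. The same limit holds for those counts and for the other genes given in that fit. The gene *HAP1*, carried by the plasmid, was at 10.46, 10.23 and 10.98 with cobalt and at 11.19, 11.52 and 10.95 without oxygen, lower with cobalt in pairs 1 and 2. It lay between 5.76 and 6.57 on the 6 arrays of cells with the empty vector. The cobalt samples' free-text description names the empty vector, while their titles and source names say *HAP1*, and the measured level is that of *HAP1* cells. The hypoxic gene *ANB1* was at 9.64 and 9.49 on cobalt arrays 1 and 2 but at 12.22 on cobalt array 3, and *CYC1*, the cytochrome *c* gene, was at 13.51, 13.46 and 9.41 on the same arrays. The 6 h array of number 3 had the mannoprotein gene *PAU3* at 6.91 against 13.51 and 13.30, and the iron oxidase gene *FET3* at 13.08 against 9.05 and 10.07. Another array that enters the fit only through its spread, labelled 1.5 h without oxygen and also numbered 3, had *ANB1* at 9.02 and correlated best with cobalt array 2 (r = 0.986 across genes). On it *CYC1* was at 13.72 and *INH1* at 11.57, near cobalt arrays 1 and 2, while cobalt array 3 had *INH1* at 8.28 beside 7.36 and 6.19 on the other 1.5 h arrays. *DAN1* did not follow, at 9.26 on cobalt array 3 against 14.15 and 13.57 on those 1.5 h arrays. An exchange of labels was not tested, and it would change what each mean with cobalt array 3 stands for. Cobalt arrays 1 and 2 were the closest of all array pairs (r = 0.993), although they were hybridized on different days. Each had 0.965 with cobalt array 3. That array correlated best with aerobic array 3 (r = 0.982), and had 0.954 and 0.854 with 1.5 h arrays 1 and 2. Correlation did not set 6 h array 3 apart, at 0.908 and 0.915 with arrays 1 and 2, which had 0.899 with each other. Of the 1.5 h arrays, array 1 had 0.93 with array 3 and 0.86 with array 2, and arrays 2 and 3 had 0.82. Aerobic array 2 had 0.766 and 0.795 with the other aerobic arrays, which had 0.982 with each other, and was kept in both fits. The share of *S. cerevisiae* probe sets above background, taken as the 95th percentile of the fission yeast probe sets on the same array, was 93.3%, 91.2% and 78.6% with cobalt and 91.2%, 78.3% and 77.4% at 6 h without oxygen. Genes that define MATa cells, such as *STE2* and *MFA1*, were at or above 12.03 on all 6 arrays.

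With all arrays, 108 of 5449 genes (1.98%) differed between cobalt and true anaerobiosis in limma with the replicate number as a block, at an adjusted p below 0.05. Of these, 39 (0.716%) were higher with cobalt and 69 (1.27%) were lower. Without the replicate block no gene passed in either direction (335 higher and 271 lower at an unadjusted p below 0.05), none passed when 6 h array 1 or 6 h array 2 was left out, and 1 passed when cobalt array 2 was left out. Without the 1.5 h, cobalt and 6 h arrays of number 3, 181 genes (3.32%) were higher and 190 (3.49%) were lower, together 6.81%, and 96 of the 108 genes were among them. Set against air, 1 gene (0.0184%) was higher and 7 (0.128%) were lower with cobalt, and 72 (1.32%) were higher and 45 (0.826%) lower after 6 h without oxygen. Without the 3 arrays these counts were 0 and 4 (0.0734%) with cobalt, and 196 (3.6%) and 192 (3.52%) without oxygen. Aerobic array 2, which stood furthest from its group by correlation, entered every comparison with air. The 3 cobalt arrays lay wholly above the 6 h arrays for 15.8% of genes and wholly below for 7.63%, 23.5% in all. The median gene differed by 0.15, or by 0.21 without the 3 arrays.

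**Figure D1:**
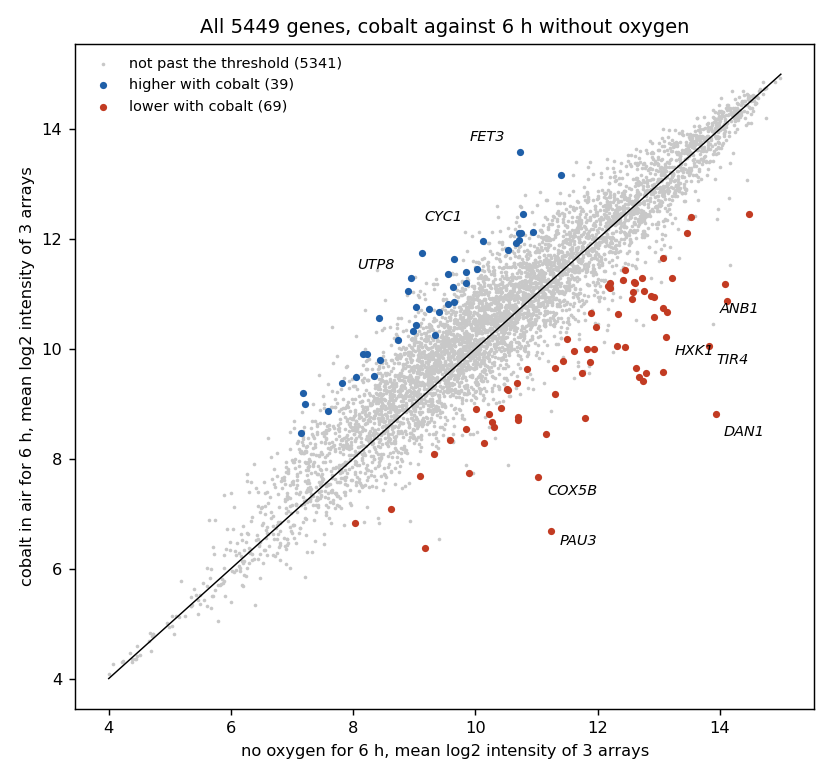
Mean log2 intensity of the 3 cobalt arrays (y axis) against the mean of the 3 arrays at 6 h without oxygen (x axis) for 5449 genes. Blue points are the 39 genes higher with cobalt and red points the 69 lower at an adjusted p below 0.05, the line marks equal levels, and the red points reach farther from the line than the blue ones, down to *DAN1*.

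Cobalt failed most clearly to bring up the anaerobic cell wall mannoproteins. These glycosylated surface proteins of the DAN, TIR and PAU families replace the aerobic wall proteins when oxygen and sterols are short. All 14 measured members were lower with cobalt, with a median of -3.15, and 11 of them passed the test, beside 1.27% of all genes in that direction. *DAN1* was at 8.63, 8.53 and 9.26 with cobalt and at 14.50, 14.55 and 12.77 without oxygen, a 35-fold lower level (log2 difference -5.13, SE 1.00, adjusted p = 0.0305, with a difference of -5.94 without the 3 arrays). The groups did not overlap. *DAN1* was above background on all 3 cobalt arrays and on none of the aerobic ones, at 7.54, 8.82 and 7.55. *TIR2* was at 10.47, 11.01 and 11.15 with cobalt and at 14.66, 14.63 and 13.07 without oxygen (-3.24, SE 0.59, adjusted p = 0.0305, with a difference of -3.90 without the 3 arrays). Its aerobic arrays, from 10.27 to 12.64, covered all cobalt arrays. *PAU2* was at 9.72, 9.68 and 9.36 with cobalt and at 14.67, 14.52 and 10.06 without oxygen (-3.49, SE 0.76, adjusted p = 0.041, with a difference of -4.89 without the 3 arrays), so that most of its difference came from arrays 1 and 2. Other members past the threshold included *TIR4* (-3.77, adjusted p = 0.041), *PAU24* (-3.33, adjusted p = 0.0305) and *PAU7* (-3.07, adjusted p = 0.0305).

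*PAU3* was not above background on any cobalt array and was so on 2 of the 3 anaerobic ones, which makes it at least 8.16-fold lower with cobalt (fitted difference -4.55, adjusted p = 0.041, with a difference of -6.48 without the 3 arrays). The 3 members that missed the threshold, named after their values were seen, were *TIR1* (-2.65, adjusted p = 0.0656), *PAU8* (-2.10, adjusted p = 0.0615) and *PAU23* (-0.55, adjusted p = 0.0931). *PAU23* differed from the rest in its level, since it was at or above 14.04 on all cobalt, anaerobic and aerobic arrays. That value is of its brightest probe set, and with the mean of its probe sets *PAU23* differed by -1.62 (adjusted p = 0.0407). The PAU genes are closely related in sequence and some may share probe signal, which was not tested, so their values may not be independent. Within same-numbered pairs the list median was -4.10, -4.05 and -0.76, and without the 3 arrays it was -4.05 with 13 of 14 members passing. Pairs 2 and 3 each shared a hybridization round, while in pair 1 the cobalt array was in the first round of its day with the aerobic array and the 6 h array in the next round. In RNA from whole cultures, fewer expressing cells and less RNA per cell cannot be told apart.

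**Figure D2:**
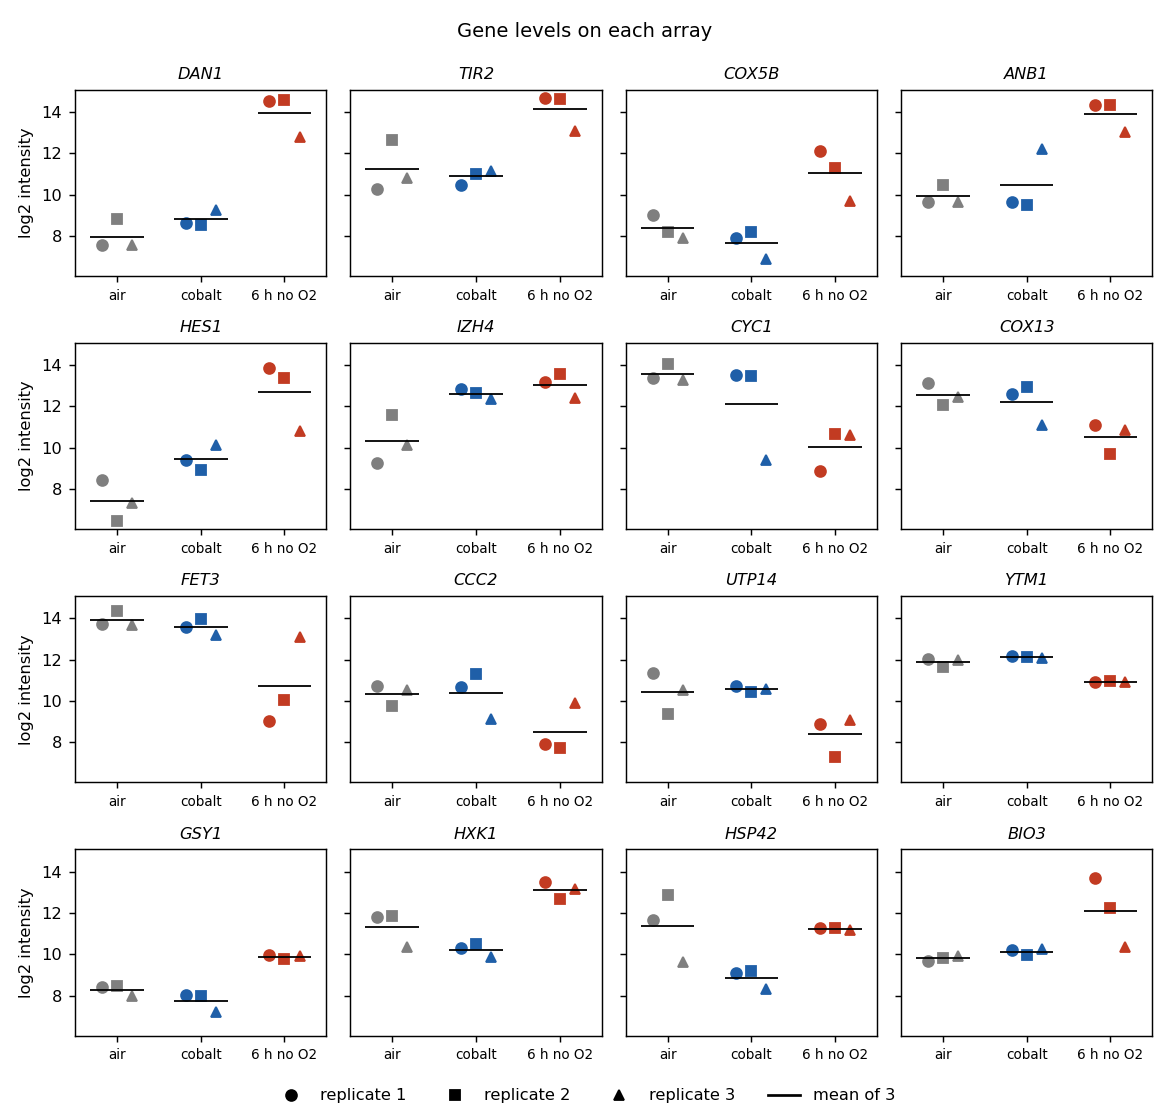
Log2 intensity (y axis) of 16 genes on the aerobic, cobalt and 6 h anaerobic arrays, with 1 symbol per replicate number and a line at the mean of 3. *DAN1*, *TIR2* and *COX5B* stayed near their aerobic level with cobalt, *IZH4* was near its anaerobic level, and cobalt array 3 left its group for *ANB1* and *CYC1*.

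Most other hypoxic genes were also lower with cobalt. These 18 genes, most of them held down in air by Rox1 or driven by Upc2, had a median of -1.13. Of the 18, 15 were lower with cobalt and 3 passed the test, and without the 3 arrays 10 passed, all lower (median -1.64; pair medians -1.75, -1.55 and -0.10). *COX5B*, the hypoxic isoform of a cytochrome oxidase subunit, had the smallest p of all genes. It was at 7.89, 8.19 and 6.91 with cobalt and at 12.11, 11.27 and 9.70 without oxygen (10.3-fold lower, log2 difference -3.37, SE 0.43, adjusted p = 0.0101, with a difference of -3.65 without the 3 arrays). Cobalt array 3 was below its background of 8.72, and with it raised to that level, a step added after seeing the data, the gene was 6.79-fold lower. Its cobalt arrays overlapped the aerobic ones (9.03, 8.17 and 7.90), and it was the only gene that still passed with the hybridization round as the block (adjusted p = 0.0437).

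*HES1*, *PDR11* and *UPC2* belong to sterol transport and its control. *HES1*, an oxysterol-binding protein gene, was at 9.43, 8.90 and 10.12 with cobalt and at 13.86, 13.39 and 10.80 without oxygen (-3.20, SE 0.67, adjusted p = 0.0346, with a difference of -4.46 without the 3 arrays). In air it was at 8.43, 6.48 and 7.33, so the cobalt arrays lay between the other groups, but cobalt against air was not called (2.07, adjusted p = 0.459). On aerobic arrays 2 and 3 *HES1* was under the backgrounds of 8.99 and 8.36, so the size of its gap to air is uncertain. The sterol importer gene *PDR11* was lower with cobalt (-1.57, SE 0.34, adjusted p = 0.041, with a difference of -1.98 without the 3 arrays), and its partner *AUS1*, added after its values were seen, had -1.33 (adjusted p = 0.0576). *UPC2*, the sterol-sensing activator itself, was at 10.49, 10.20 and 10.71 with cobalt, at 12.95, 12.51 and 10.40 without oxygen and at 9.33, 8.93 and 9.53 in air. Its anaerobic array 3 was below cobalt array 3, and the difference did not pass with all arrays (-1.49, adjusted p = 0.11). It passed without the 3 arrays (-2.39, adjusted p = 0.00321), without 6 h array 3 alone (-2.11, adjusted p = 0.0258) and with array weights (-1.93, adjusted p = 0.00507). The fit gave 2.69 for *UPC2* at 6 h against air (adjusted p = 0.0229) and 1.2 for cobalt against air (adjusted p = 0.472), and all such pairs of values share the aerobic arrays.

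For the classical hypoxic genes *ANB1* and *HEM13* the call turned on the arrays of number 3. *ANB1*, the hypoxic translation factor eIF5A, was at 14.31, 14.33 and 13.02 without oxygen, above the 9.64, 9.49 and 12.22 of the cobalt arrays (-3.44, SE 1.01, adjusted p = 0.081). Without the 3 arrays the difference was -4.76. *HEM13*, which encodes the oxygen-requiring coproporphyrinogen oxidase of heme synthesis, was at 12.21, 11.81 and 13.61 with cobalt and at 14.21, 14.28 and 13.45 without oxygen (-1.44, adjusted p = 0.137). Cobalt array 3 exceeded its anaerobic partner, and without the 3 arrays *HEM13* was lower by 2.23 (adjusted p = 0.00277).

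A smaller set of genes lay near the anaerobic level with cobalt. *IZH4*, a membrane protein gene of zinc and sterol metabolism singled out after its values were seen, was at 12.84, 12.67 and 12.34 with cobalt and at 13.18, 13.55 and 12.39 without oxygen. All of these exceeded the aerobic arrays at 9.28, 11.59 and 10.15. The cobalt minus 6 h difference was -0.43 with a 95% interval from -1.23 to 0.37, and *IZH4* was the only gene higher with cobalt than in air (2.28, SE 0.37, adjusted p = 0.0361; 0.0184% of genes), a call that did not hold without the 3 arrays (2.29, adjusted p = 0.0777). At 6 h against air it gave 2.70 (adjusted p = 0.0141). *MGA2*, also chosen after the fact, encodes a membrane-bound activator of *OLE1* that senses unsaturated lipids. It was at 10.64, 10.45 and 9.76 with cobalt, at 10.88, 9.78 and 9.62 without oxygen and at 8.82, 7.05 and 8.80 in air, with a cobalt minus 6 h interval from -0.61 to 0.99. Its difference from air was 2.06 with cobalt (adjusted p = 0.0532) and 1.87 at 6 h (adjusted p = 0.0263). Both values rest in part on aerobic array 2, where *MGA2* was under the background of 8.99.

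*OLE1*, the fatty acid desaturase gene whose promoter the study examined, was at 14.27, 14.24 and 14.04 with cobalt and at 14.33, 14.42 and 14.12 without oxygen. The difference of -0.11 had an interval from -0.63 to 0.42, and the aerobic arrays (13.63, 12.77 and 13.96) were all lower, although neither comparison with air passed (adjusted p = 0.472 and 0.101). The *OLE1* levels with cobalt and without oxygen lay near the 14.50 and 14.55 of *DAN1* on anaerobic arrays 1 and 2. Whether signals are compressed at such levels, for *OLE1* or for other bright genes, was not tested. *HMG2*, the hypoxic isoform of HMG-CoA reductase, was at 12.82, 12.61 and 12.41 with cobalt, below each paired anaerobic array at 13.35, 13.57 and 12.54 and above every aerobic array at 12.02, 12.11 and 11.58. Its cobalt minus 6 h difference was -0.54 (interval from -0.97 to -0.10, adjusted p = 0.137).

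**Figure D3:**
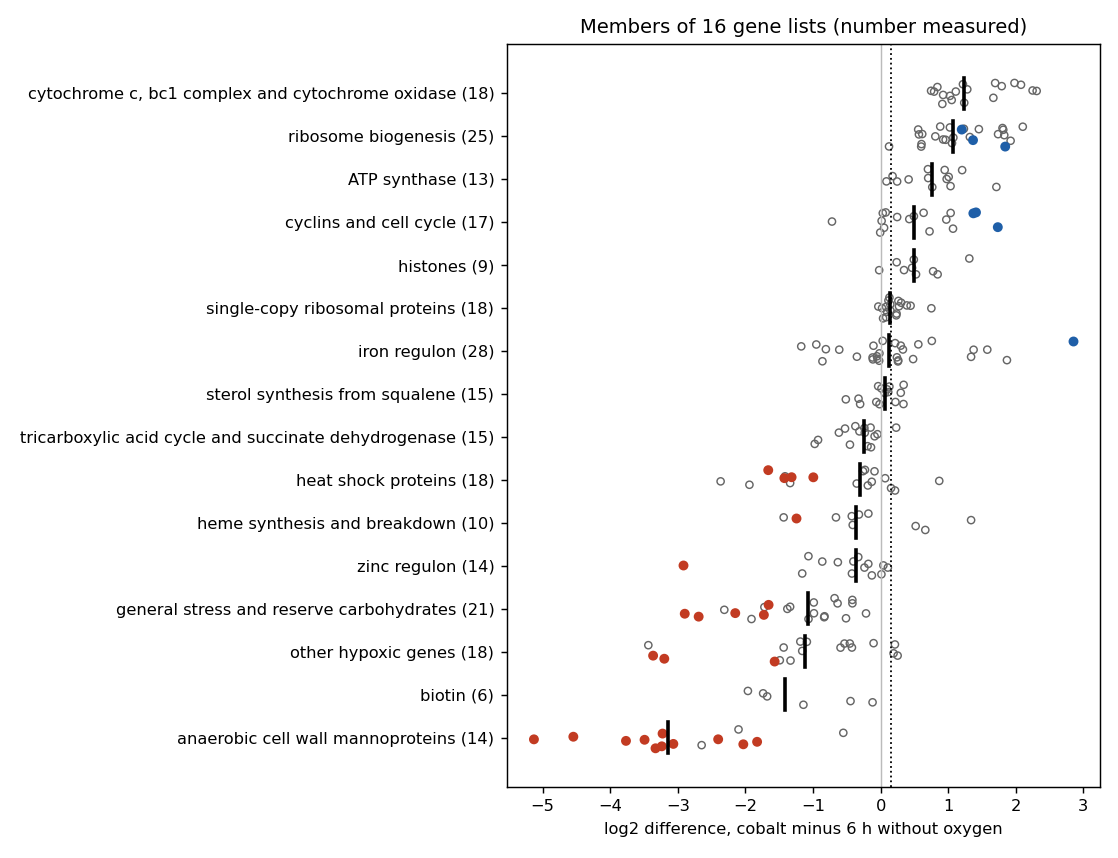
Log2 difference, cobalt minus 6 h without oxygen (x axis), for each measured member of 16 gene lists, with filled points for members past an adjusted p of 0.05, thick bars for list medians and a dotted line at the median of all genes, 0.15. Mannoproteins, biotin genes and reserve carbohydrate genes lie to the left, and respiratory and ribosome biogenesis genes to the right.

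The respiratory chain had the highest list median on the other side, and the arrays of number 3 decided its calls. All 18 measured genes of cytochrome *c*, the bc1 complex and cytochrome oxidase, which carry electrons to oxygen, were higher with cobalt in the fit (median 1.23, range 0.75 to 2.31), but none passed the test. Without the 3 arrays 16 of the 18 passed, all higher (median 2.00, beside 3.32% of all genes), and *COX9* (0.99, adjusted p = 0.387) and *QCR8* (1.68, adjusted p = 0.0874), named after the fact as the exceptions, did not. The list median was 1.61 and 2.48 in pairs 1 and 2 and -0.23 in pair 3. *CYC1* was at 13.51 and 13.46 on cobalt arrays 1 and 2, inside the aerobic range of 13.26 to 14.03, and at 9.41 on cobalt array 3, inside the anaerobic range of 8.87 to 10.67. Its difference was 2.08 with all arrays (SE 0.79, adjusted p = 0.141) and 3.71 without the 3 (SE 0.39).

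Within the list, only 2 of 18 genes, *COX12* and *COX13*, kept all cobalt arrays above all anaerobic ones, beside 15.8% of all genes. *COX13*, which encodes a regulatory oxidase subunit, was at 12.61, 12.92 and 11.09 with cobalt and at 11.09, 9.68 and 10.84 without oxygen (1.67, adjusted p = 0.0922; 2.38 and 0.0059 without the 3 arrays). Cobalt array 3 exceeded anaerobic array 1 by less than the rounding shown. *COX4*, another oxidase subunit gene, gave 1.98 (adjusted p = 0.12) and 3.06 without the 3 arrays (adjusted p = 0.0113). The ends of the list were *COX7*, also of the oxidase, at 2.31 (adjusted p = 0.152) and *QCR2*, a bc1 core subunit gene, at 0.75 (adjusted p = 0.307; 1.65 and 0.00143 without the 3 arrays). *CYT1*, encoding cytochrome *c*1, was at 12.39, 11.94 and 9.37 with cobalt and at 9.47, 10.08 and 10.82 without oxygen (1.11, adjusted p = 0.28; 2.39 and 0.00197 without the 3 arrays). *HAP4*, the activating subunit of the factor that drives these genes, showed the same split of arrays, with 11.17, 10.72 and 9.14 against 8.90, 8.86 and 10.00 (1.09, adjusted p = 0.158; 2.07 and 0.000888 without the 3 arrays). *INH1*, encoding the inhibitor of ATP synthase, was at 11.34, 11.57 and 8.28 with cobalt and at 8.27, 7.10 and 7.61 without oxygen, where 1 of 3 arrays was above background, and *YER053C-A*, of unknown function, was at 12.65, 12.83 and 8.85 against 8.13, 7.62 and 9.42. Both were among the largest differences without the 3 arrays (3.77 and 4.86).

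The other mitochondrial genes differed less. The 13 ATP synthase genes were all higher with cobalt (median 0.76, none past the threshold) and 2 of them, including the gamma subunit gene *ATP3*, passed without the 3 arrays (0.41, adjusted p = 0.387 with all arrays; 0.87, adjusted p = 0.0332 without). The 15 genes of the tricarboxylic acid cycle and succinate dehydrogenase had a median of -0.24, and none passed with all arrays or without the 3. *ROX1*, the hypoxic repressor, had no settled direction. It was at 10.66, 10.58 and 8.61 with cobalt and at 8.26, 10.02 and 11.90 without oxygen (-0.11, adjusted p = 0.943; 1.48, adjusted p = 0.0948 without the 3 arrays).

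**Figure D4:**
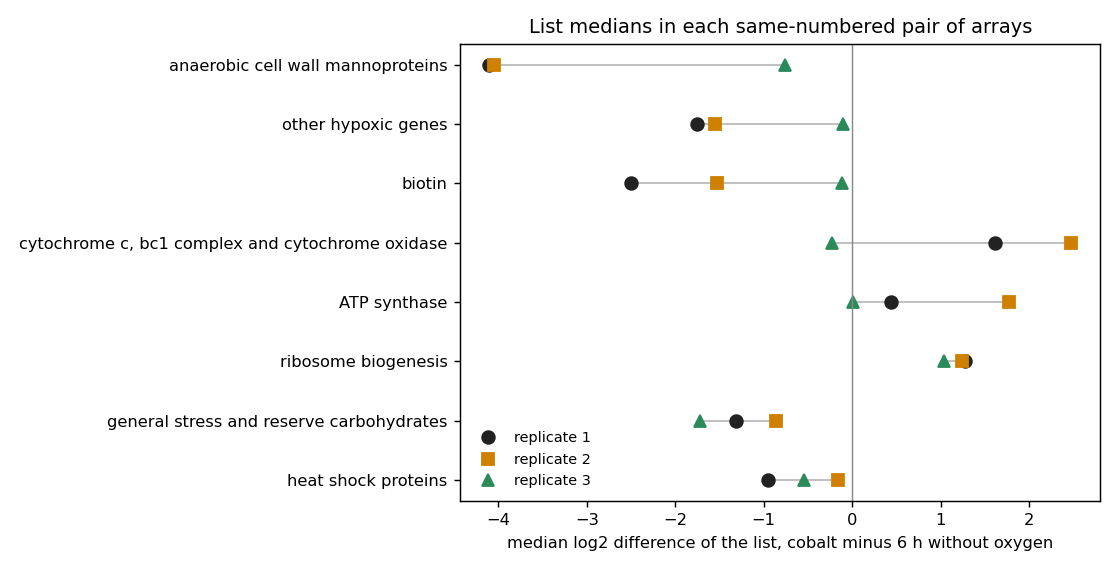
Median log2 difference, cobalt minus 6 h without oxygen (x axis), of 8 gene lists in each pair of same-numbered arrays. The pair of number 3 sits apart for mannoproteins (-0.76 against -4.10 and -4.05) and for the respiratory chain (-0.23 against 1.61 and 2.48), while ribosome biogenesis lies between 1.04 and 1.27 in all 3 pairs.

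The metal genes were not higher as a group with cobalt than without oxygen. *FET3*, the multicopper oxidase of high-affinity iron uptake, had the largest difference among genes past the threshold and higher with cobalt in all pairs (7.22-fold, log2 difference 2.85, SE 0.65, adjusted p = 0.0415, with a difference of 4.23 without the 3 arrays). It was at 13.60, 13.99 and 13.17 with cobalt and at 9.05, 10.07 and 13.08 without oxygen. The cobalt arrays were at the aerobic level (13.75, 14.35 and 13.68), so the gap came from 2 low anaerobic arrays, and the fit gave -0.34 for cobalt against air and -3.19 for 6 h against air (adjusted p = 0.828 and 0.0277). Its permease partner *FTR1* had 1.58 (adjusted p = 0.059) and 2.38 without the 3 arrays (adjusted p = 0.000511), and *CCC2*, which loads copper into Fet3, had 1.87 (adjusted p = 0.0953) and 3.19 (adjusted p = 0.000583). *HMX1*, the heme oxygenase gene, was at 10.91, 11.47 and 8.53 with cobalt and at 8.26, 9.24 and 9.40 without oxygen (1.34, adjusted p = 0.162; 2.44 and 0.000147 without the 3 arrays).

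The whole iron regulon of 28 genes had a median of 0.12, near that of all genes, with *FET3* as its only member past the threshold, beside 0.716% of all genes higher with cobalt, and 7 members past it without the 3 arrays, all higher, beside 3.32%. These 7 were *FET3*, *FTR1*, *CCC2*, *HMX1*, the reductase genes *FRE1* (1.80, adjusted p = 0.0164) and *FRE4* (1.04, adjusted p = 0.0188), and the siderophore transporter gene *ARN1* (1.04, adjusted p = 0.0369), where *FRE4* and *ARN1* are named only because they were called. The cell wall siderophore genes *FIT1* and *FIT2*, singled out after their values were seen, lay wholly below the anaerobic arrays with cobalt (-0.86, adjusted p = 0.108; -0.95, adjusted p = 0.215). *COT1*, the vacuolar transporter that protects yeast from cobalt, was at 11.51, 11.50 and 10.75 with cobalt and at 12.02, 12.33 and 11.85 without oxygen (-0.81, SE 0.27, adjusted p = 0.11), with aerobic arrays at 11.38, 12.25 and 11.02. None of the 13 genes of cobalt and other metal transport passed, nor did any of the 11 copper genes with all arrays.

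In the zinc regulon 1 of 14 genes passed. *ZPS1*, a secreted protein gene of zinc and pH response, was at 10.77, 10.77 and 11.99 with cobalt and at 14.28, 14.17 and 13.83 without oxygen (7.56-fold lower, log2 difference -2.92, SE 0.58, adjusted p = 0.0305, with a difference of -3.46 without the 3 arrays). The cobalt arrays did not reach the anaerobic ones in any pair and overlapped the aerobic arrays (11.21, 12.67 and 12.73).

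Genes of heme metabolism went both ways with cobalt, and those of biotin synthesis were lower. Of 10 listed heme genes, which include *HAP1* beside those of heme synthesis and breakdown, 3 were higher and 7 lower with cobalt. Every cobalt array lay above every anaerobic array for 2 of them and below for 1, beside 15.8% and 7.63% of all genes. *HEM14*, the oxygen-using protoporphyrinogen oxidase gene, was at 9.29, 9.05 and 9.45 with cobalt and at 10.58, 10.52 and 10.48 without oxygen (-1.26, SE 0.23, adjusted p = 0.0305, with a difference of -1.37 without the 3 arrays). It was the only one of the 10 heme genes past the threshold, and its cobalt arrays were at the aerobic level (9.38, 9.29 and 9.27). All 6 biotin genes were lower with cobalt (median -1.41), none passed with all arrays, and 4 passed without the 3. *BIO3*, encoding a transaminase of biotin synthesis, was at 10.19, 9.97 and 10.24 with cobalt and at 13.70, 12.24 and 10.36 without oxygen (-1.96, adjusted p = 0.0672; -2.89 and 0.00526 without the 3 arrays). The neighbouring steps *BIO4* (-2.61, adjusted p = 0.0112) and *BIO2* (-1.66, adjusted p = 0.0344) and the transporter *BIO5* (-2.50, adjusted p = 0.0234) were the others called without the 3 arrays.

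Ribosome biogenesis genes were higher with cobalt in all 3 pairs. The 25 measured members, which process ribosomal RNA in the nucleolus, were all higher with cobalt (median 1.08), and for 23 of them every cobalt array lay above every anaerobic array, beside 15.8% of all genes. Only 3 passed the test, *NOP7*, *YTM1* and *HAS1*, and 5 without the 3 arrays, where *NOP7* was not among them (1.84, adjusted p = 0.041; 1.74, adjusted p = 0.0821 without). The pair medians were 1.27, 1.24 and 1.04. The list median on the aerobic arrays was 12.56, 11.25 and 12.38, beside 12.40, 12.12 and 12.45 with cobalt and 10.93, 10.96 and 11.34 without oxygen. Cobalt therefore left this list near the level of aerobic arrays 1 and 3, and aerobic array 2, on which 67.6% of probe sets were above background, was lower.

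*YTM1*, a factor of large-subunit assembly, was at 12.20, 12.12 and 12.09 with cobalt and at 10.93, 10.96 and 10.92 without oxygen, a tight separation (2.30-fold, log2 difference 1.2, SE 0.25, adjusted p = 0.0324, with a difference of 1.21 without the 3 arrays). *UTP14*, of the small-subunit processome, was outside the list but among the 10 largest differences, with 10.71, 10.44 and 10.56 against 8.90, 7.30 and 9.08 (2.14, SE 0.39, adjusted p = 0.0305). *UTP8* (2.35, adjusted p = 0.041), *ENP2* (1.98, adjusted p = 0.0474) and *FAF1* (2.02, adjusted p = 0.0429), which also act in small-subunit maturation or the nucleolus, were in the same top 10. *FAF1* was not above background on any anaerobic array, so it was at least 1.64-fold higher with cobalt, and it did not pass without the 3 arrays (adjusted p = 0.0689). The top 10 also held *MNN1*, a Golgi mannosyltransferase gene (2.16, adjusted p = 0.041), *YDR222W* (2.61, adjusted p = 0.041), *YLR363W-A* (1.81, adjusted p = 0.0429; 1.48 and 0.0789 without the 3 arrays) and *PMS1*, a mismatch repair gene that was above background on no anaerobic array and was at least 1.44-fold higher (1.79, adjusted p = 0.0499). The 18 single-copy ribosomal protein genes had a median of 0.14, near that of all genes, and none passed, but 17 were positive and for 11 every cobalt array lay above every anaerobic one. Their median level was between 14.26 and 14.48 on the 6 arrays.

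Of 17 measured cyclin and cell cycle genes, 3 passed, all higher with cobalt, beside 0.716% of all genes (list median 0.49; pair medians 0.59, 0.96 and -0.02). *CLB2*, the main mitotic cyclin gene, was at 11.06, 10.55 and 10.69 with cobalt and at 8.81, 8.38 and 9.91 without oxygen (1.73, SE 0.39, adjusted p = 0.0415, with a difference of 2.21 without the 3 arrays). *SWI5*, a transcription factor of the end of mitosis, had 1.41 and the S-phase cyclin gene *CLB6* 1.37 (adjusted p = 0.0415 and 0.041). The cobalt arrays lay above the anaerobic ones for all 3 genes.

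Reserve carbohydrate and general stress genes moved the other way. All 21 measured genes were lower with cobalt (median -1.07; pair medians -1.32, -0.86 and -1.72), 12 with no overlap beside 7.63% of all genes, and 5 passed beside 1.27% of all genes (6 without the 3 arrays, median -0.84). *HXK1*, a hexokinase gene repressed by glucose, was at 10.28, 10.50 and 9.86 with cobalt and at 13.51, 12.65 and 13.18 without oxygen (7.46-fold lower, log2 difference -2.90, SE 0.56, adjusted p = 0.0305, with a difference of -2.69 without the 3 arrays). *GSY1*, a glycogen synthase gene, was at 8.02, 8.01 and 7.20 against 9.98, 9.78 and 9.91 (-2.15, SE 0.40, adjusted p = 0.0305, with a difference of -1.87 without the 3 arrays). Glycogen breakdown enzymes shared that direction, with *GPH1* (phosphorylase) at -2.69, *PGM2* (phosphoglucomutase) at -1.73 and *GDB1* (debranching enzyme, named after its values were seen) at -1.66 (adjusted p = 0.0305, 0.0305 and 0.0345). Without the 3 arrays *GDB1* did not pass (-1.34, adjusted p = 0.0586). On the aerobic arrays *GSY1* was at 8.42, 8.45 and 8.00, close to the cobalt arrays, while *HXK1* was at 11.80, 11.84 and 10.34, below every anaerobic array and overlapping the cobalt arrays. *GSY1* was above background on 1 of 3 cobalt arrays.

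Of 18 measured heat shock genes 4 passed, all lower with cobalt, beside 1.27% of all genes (list median -0.31). *HSP104*, the disaggregase gene, was at 11.36, 11.18 and 10.17 with cobalt and at 12.93, 12.23 and 12.53 without oxygen (-1.66, SE 0.32, adjusted p = 0.0305, with a difference of -1.32 without the 3 arrays), *HSP82*, an Hsp90 gene, had -1.32 (adjusted p = 0.0426) and *SSA1*, an Hsp70 gene, had -1.42 (adjusted p = 0.041). *SIS1*, an essential Hsp70 co-chaperone gene, was at 11.19, 11.24 and 11.18 with cobalt, at 12.14, 12.64 and 11.83 without oxygen (-1.0, SE 0.20, adjusted p = 0.0305) and at 12.40, 12.45 and 12.28 in air. It was lower with cobalt than in air (-1.17, adjusted p = 0.0393, one of 7 genes or 0.128% so called; -1.24, adjusted p = 0.0615 without the 3 arrays), while 6 h differed from air by -0.17 (adjusted p = 0.712). *HSP42*, a small heat shock protein gene, was at 9.10, 9.20 and 8.31 with cobalt and at 11.28, 11.26 and 11.17 without oxygen (-2.37, adjusted p = 0.0601; -2.12 and 0.0305 without the 3 arrays), and at 11.67, 12.86 and 9.62 in air.

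Other lipid genes also stood among the extremes. *YSR3*, a sphingoid base phosphatase gene, was at 9.98, 9.47 and 9.50 with cobalt and at 13.82, 13.79 and 10.26 without oxygen (-2.98, SE 0.54, adjusted p = 0.0305, with a difference of -4.08 without the 3 arrays). *FAA1*, a fatty acyl-CoA synthetase gene, was at 11.75, 11.58 and 10.29 with cobalt and at 8.03, 8.45 and 11.10 without oxygen, and passed only without the 3 arrays (2.01, adjusted p = 0.0988; 3.42, adjusted p = 0.000125). No gene of sterol synthesis from squalene (15 measured) passed in either fit, and the list median was 0.06. Of the remaining lists, only that of amino acid biosynthesis had a member past the threshold with all arrays (1 of 29, lower). No measured gene of glycolysis and fermentation (19), redox defense (25), the proteasome (28) or the iron-sulfur cluster machinery (16) passed with all arrays, and these list medians lay between -0.05 and 0.16.

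**Figure D5:**
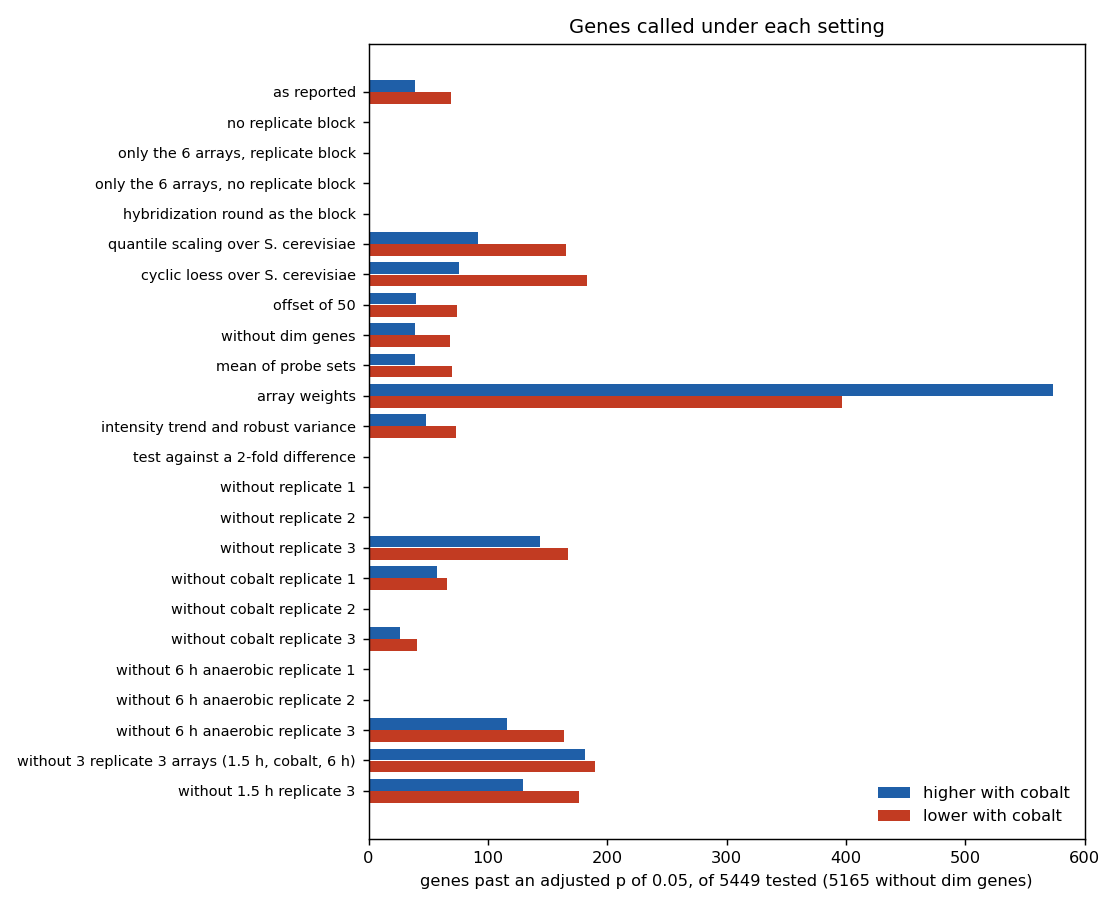
Number of genes past an adjusted p of 0.05 (x axis), higher (blue) or lower (red) with cobalt, under each of 24 settings, where a bar too short to see is a count of 0 or 1. As reported there were 39 and 69, with array weights 573 and 397, and none without the replicate block.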

How the data were processed

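The authors converted array images with GCOS and computed intensities with RMA (background correction, quantile normalization, summary per probe set), and the deposited intensity values are linear. The version of the RMA program is not given in the sources used here. The arrays hold 10928 probe sets. Those without a gene name (3683), those of other species (1746) and 1 that named several genes were left out, and the remaining 5498 gave 5449 genes (12 symbols updated). For 47 genes with several probe sets the one with the highest mean was used.

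Intensities were converted here to log2 values and limma 3.58.1 (R 4.3.3, statmod 1.5.0) was fitted to the 18 L51 arrays with condition and replicate number, with Benjamini-Hochberg adjustment over 5449 genes and a threshold of 0.05. The study's fold changes set same-numbered arrays against each other and these shared a hybridization day, which is the basis of the block. Deviations from the group means correlated at 0.18, -0.06 and 0.27 for the 3 same-numbered cobalt and 6 h arrays. For unlike numbers they ran from -0.29 to 0.30, with the highest for cobalt array 2 and 6 h array 1. Same-numbered arrays were thus not closer than unlike-numbered ones in every case. The scanner parameter files the authors deposited hold other instrument settings and gave only the hybridization day and round. A gene was not above background where it was under the 95th percentile of the fission yeast probe sets. Where that held on all 3 arrays of a group the fold is a bound, the other group's mean over the higher of background and signal. Depth has no equivalent on arrays, and 3 arrays per group limit the precision.

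The members, the 31 gene lists and the rule for named genes were chosen with earlier results of these data known. Named are the 10 largest differences each way past the threshold with the same sign in all pairs, the same in the fit without the 3 arrays of number 3, up to 4 members of each list with the smallest p in either fit, and *ANB1*, *DAN1*, *CYC1*, *HAP1*, *OLE1*, *FET3*, *ROX1* and *COT1*. Names chosen after seeing values are marked as such. On simulated data the fit recovered 95% of genes changed by 2 and 100% of those changed by 4 on the log2 scale (5449 genes), with 5.3% false calls. The simulated noise was independent and equal on all arrays of a gene, and the block effects were taken as true. These rates therefore do not describe data in which arrays stand apart from their groups. The alternatives were other blocks, only the 6 arrays, 2 other scalings, an offset of 50, leaving out dim genes, mean probe sets, array weights, a variance trend, a required 2-fold difference, and leaving out arrays. The fit without the 1.5 h array of number 3 alone and the raising of signals to background were added after seeing the data.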

Additional observations from a re-analysis of the deposited data

How the results depend on the processing

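The number of genes called depended on the settings. All 108 calls kept their direction under every setting in which they were measured (107 of 107 without dim genes). These genes were chosen on the same arrays, and several settings change the error but not the difference. The kept direction was thus largely fixed in advance and is not support for the calls. As reported, 39 genes were higher and 69 lower with cobalt. Without the replicate block, with only the 6 arrays with or without the block, and against a required 2-fold difference, 0 were higher and 0 lower. Blocking on the hybridization round gave 0 higher and 1 lower. Quantile scaling gave 92 and 165, cyclic loess 76 and 183, and array weights 573 and 397. Without the 1.5 h, cobalt and 6 h arrays of number 3 the counts were 181 and 190, and without the 1.5 h array of number 3 alone, added after seeing the data, 129 and 176. Leaving out a replicate number or an array gave 0 to 144 higher and 0 to 167 lower. The cause of these shifts was not tested. The median of all genes was 0.02 after quantile scaling and -0.01 after cyclic loess, against 0.15 as reported. An offset of 50, the mean of probe sets, a variance trend and leaving out dim genes kept both counts within 1.5 times.

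Of 83 genes whose differences are given, 39 passed as reported, and these 39 lost their call without the replicate block. *MGA2* turned to -0.07 with cyclic loess and -0.12 with array weights, and ranged from -0.12 to 0.41 when replicates were left out. *ROX1* turned to 0.45 with array weights and 1.48 without the 3 arrays, and ranged from -1.37 to 1.48. *OLE1* ranged from -0.22 to 0.030. Only 3 arrays per group and signals near background for the dimmest genes limit these comparisons.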

Other observations

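Of the 7 genes (0.128% of all genes) lower with cobalt than in air, 4 encode J-domain proteins, the co-chaperones that deliver clients to Hsp70. This family was not on a list and was noticed after the values were seen, so no test was made of it. Members that were not called are not given here, so the count does not describe the family. Besides *SIS1* these were *APJ1* (-1.96 against air, adjusted p = 0.0361), *MDJ1* of the mitochondrial matrix (-1.38, adjusted p = 0.0393) and *JID1* (adjusted p = 0.0361). *JID1* was not above background on any cobalt or anaerobic array, so it was at least 2.03-fold lower with cobalt than in air and gave no comparison between the treatments. *APJ1* was at 8.06, 7.98 and 8.28 with cobalt, at 8.96, 8.85 and 8.54 without oxygen and at 10.31, 10.69 and 9.21 in air. Both treatments thus lay below air for this gene, and the difference between cobalt and 6 h did not pass (-0.67, adjusted p = 0.186). *APJ1* was above background on 1 of the cobalt arrays. *MDJ1* did not pass between cobalt and 6 h either (-0.62, adjusted p = 0.143). Without the 3 arrays of number 3, *APJ1* and *MDJ1* were still called against air (adjusted p = 0.00493 and 0.0396). *JID1* (adjusted p = 0.0639) and, as given above, *SIS1* were not. *YKR075C*, of unknown function and also chosen after its values were seen, was lower with cobalt than both in air (-2.23, adjusted p = 0.0361) and at 6 h (-1.66, adjusted p = 0.041), at 9.42, 9.51 and 10.41 against 11.04, 11.70 and 11.57 without oxygen.

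A pair of genes known as targets of the DNA damage checkpoint was also chosen after the values were seen, with no test of them as a group. *RNR3*, the damage-inducible large subunit of ribonucleotide reductase, was at 10.13, 9.64 and 10.22 with cobalt, at 12.44, 12.32 and 11.09 without oxygen and at 10.04, 10.58 and 9.81 in air (-1.95 against 6 h, SE 0.32, adjusted p = 0.0305, with a difference of -2.49 without the 3 arrays). *HUG1*, a small inhibitor of the same enzyme, was at 8.02, 7.94 and 7.71 with cobalt and at 12.75, 10.83 and 8.03 without oxygen (-2.65, adjusted p = 0.059; -3.81, adjusted p = 0.000758 without the 3 arrays). *HUG1* was above background on 1 of the cobalt and 2 of the anaerobic arrays, and on neither array of number 3.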
